A study of Mus musculus with 40 samples.

Results

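The 9 genes described here encode the secreted and surface molecules through which regulatory T cells (Treg) restrain other immune cells or help repair tissue: the cytokine Il10, the IL-35 subunits Ebi3 and Il12a, Tgfb1 and its docking receptor Lrrc32, the effectors Fgl2, Lgals1 and Areg, and the orphan receptor Gpr83. They were found by gene symbol on 2 Affymetrix mouse arrays, with 1 probe set for each gene. On the array of the sorted T cell experiment 7 of the 9 had a listed probe set among 18194 genes, and on the array of the ligand experiment 6 of the 9 among 17097 genes. Lrrc32 and Areg were not analysed here because no probe set was listed for them on either array, and Gpr83 was not listed on the second.

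All cells came from C57Bl/6 mice. The sorted T cell experiment used Foxp3-GFP reporter mice, in which GFP marks cells that express the Treg transcription factor Foxp3, and had 8 arrays of cells cultured for 48 h: 3 of Treg activated with antibodies to CD3 and CD28, 3 of resting Treg and 2 of resting conventional CD4 T cells. The ligand experiment had 32 arrays of sorted CD45RBlo Foxp3-YFP+ Treg from spleen and lymph nodes. Its cells were stimulated with plate-bound anti-CD3 (1 µg/mL), anti-CD28 (2 µg/mL) and IL-2 (100 U/mL). KO Treg carried a floxed Nrp1 gene together with the Foxp3-driven Cre recombinase, which was present in WT Treg too, so that deletion is expected in cells that express Foxp3. Treg of each genotype were exposed to immobilised Sema4a-Ig, a fusion protein of the Nrp1 ligand semaphorin-4a, or to mouse IgG1, both at 10 µg/mL, giving 8 arrays each of KO with Sema4a-Ig, KO with IgG1, WT with Sema4a-Ig and WT with IgG1. No label states whether replicates were separate mice or cultures, so the p-values may reflect technical spread between samples only. The labels name bone marrow as the source of the sorted cells, which was not used to describe them.

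IL-10 acts through its receptor and STAT3 to lower antigen presentation and inflammatory cytokine output. IL-35 is a heterodimer of the Ebi3 and Il12a (p35) chains, each of which has other partners: Ebi3 also pairs into IL-27 and p35 into IL-12. TGF-beta1 is made as a latent precursor that Lrrc32 (GARP) holds on the Treg surface until the integrin chains Itgav and Itgb8 release it. Fgl2 is a fibrinogen-like protein that, when secreted by Treg, binds inhibitory Fc receptors on antigen-presenting cells, and galectin-1 (Lgals1) is a sugar-binding lectin that dampens effector T cells. Areg is an EGF-family ligand linked to Treg-mediated tissue repair, and Gpr83 is a G protein-coupled receptor long used as a Treg marker.

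The labels held in the sorted cells. Foxp3 had a mean log2 signal of 10.81 ± 0.09 in activated Treg (SD, n = 3) and 10.44 ± 0.14 in resting Treg (SD, n = 3), against 4.0 ± 0.07 in conventional T cells (SD, n = 2). In the ligand experiment the Foxp3 probe set averaged 3.55, within the range of the control probe sets (means from 1.87 to 3.95), so it does not show the lineage there, while Ikzf2 (Helios) averaged 11.11. One array of that experiment, WT with Sema4a-Ig replicate 2, is titled WT but has a genotype label of a knockout, and its title was followed. The difference between the 3' and 5' probe sets of Actb, a measure of RNA integrity and of amplification, was 5.87, 6.17 and 2.31 on the log2 scale in activated Treg, 5.90, 2.50 and 2.67 in resting Treg, and 1.24 and 1.54 in conventional T cells. The 3 arrays above 4 have the 3 lowest title codes, and the other 5, which include both conventional T cell arrays, have the higher codes, so the split follows the codes, which are not stated to be batches. B cell markers averaged 6.04 to 7.04 in activated Treg and 6.28 to 7.04 in resting Treg, against 5.49 to 5.57 in conventional T cells, over the 8 of 9 genes measured, and all 8 were positive in both comparisons with conventional T cells. The 12 myeloid markers averaged 6.07 to 7.16 in activated Treg and 5.72 to 6.50 in resting Treg, against 5.46 to 5.49 in conventional T cells, with 10 and 9 of 12 positive. The 8 dendritic cell and MHC class II markers averaged 5.90 to 6.70 and 5.84 to 7.04 against 5.25 to 5.26, with 7 of 8 positive in both. Among them, H2-Aa read 7.79 to 10.55 in Treg against 6.64 and 6.24, and Cd74 7.02 to 9.34 against 5.74 and 5.77. The dendritic cell genes Itgax (4.39 to 4.95 against 4.74 and 4.89) and Siglech (4.50 to 5.31 against 4.66 and 4.61) overlapped. CD8 and NK cell markers averaged 5.23 to 5.34 in activated Treg and 5.27 to 5.35 in resting Treg, against 6.03 to 6.19 in conventional T cells, over 7 genes. Of these 7, 3 were positive in activated and 1 in resting Treg against conventional T cells, and 1 was called lower in both: Klrd1, a receptor chain of NK cells, at 4.99, 5.64 and 5.39 in activated Treg, 6.98, 8.25 and 6.67 in resting Treg and 12.03 on both conventional T cell arrays. Without Klrd1, named after its values were seen, the other 6 averaged 5.20 to 5.39 in activated Treg and 4.77 to 5.13 in resting Treg, against 5.03 to 5.22. Against conventional T cells, Cybb was called higher in resting (2.54 ± 0.28) and activated Treg (2.65 ± 0.28), and Lyz1 in activated Treg (3.33 ± 0.87). Of the B cell markers, Cd79b (2.85 and 2.56) and Ighm (0.77 and 0.73) were called higher in resting and activated Treg, and Cd79a (0.73) in resting Treg. None is at 0 on an array scale. Of the 12 myeloid markers Itgam stayed between 4.09 and 4.30 in Treg, near the highest bacterial control value on any array, 4.14. The part of these cells in the results below was not tested. In bulk RNA, fewer cells of a type and less RNA per cell cannot be told apart.

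**Figure D1:**
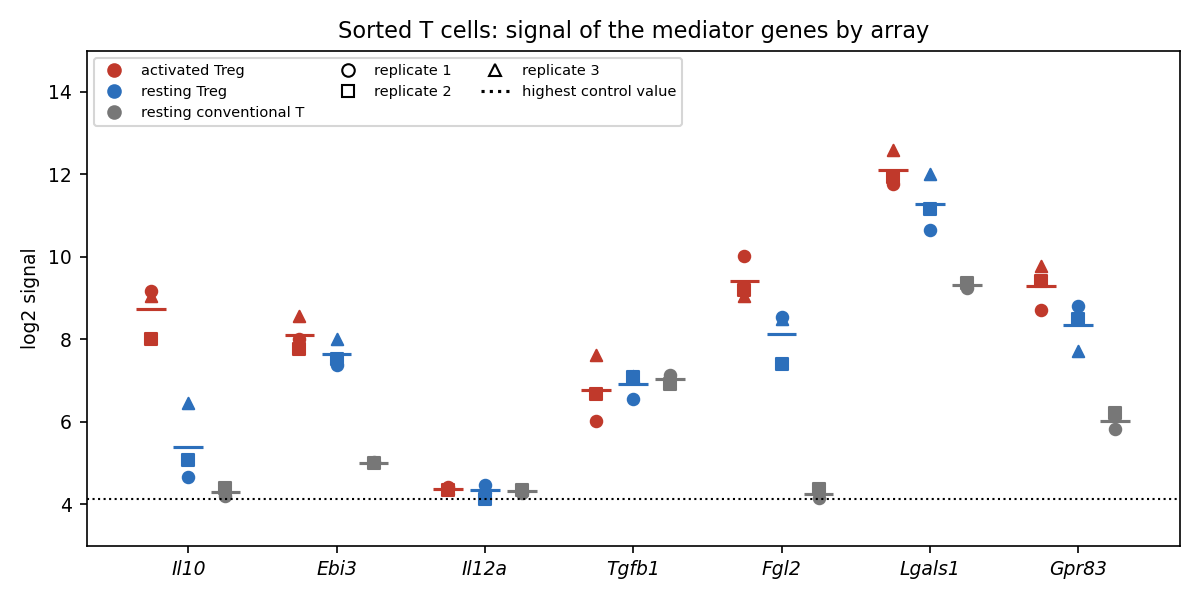
Log2 signal of the 7 measured mediator genes on each array of the sorted T cell experiment, with activated Treg, resting Treg and resting conventional T cells from left to right for each gene. Points are arrays, shaped by replicate number, short lines are group means, and the dotted line is the highest value of a bacterial control probe set (4.14). In limma's test Il10 was called between activated Treg and each of the other groups. Ebi3, Fgl2, Lgals1 and Gpr83 were called between each Treg group and conventional T cells. The arrays of Il10 and of Fgl2 did not overlap between any 2 groups, and the share of all genes that did so was not counted.

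Activated and resting Treg were compared to ask which mediators change when Treg are stimulated. Il10 was the one member called by the test, higher by 10.1-fold in activated Treg. Its log2 signal was 9.17, 8.01 and 9.06 in activated Treg, against 4.67, 5.08 and 6.46 in resting Treg. The groups did not overlap, and the lowest activated array stood well above the highest resting one. With so few arrays groups can separate without a true difference, and the share of all genes that did so was not counted. The log2 difference was 3.34 ± 0.47 (SE), with a 95% interval from 2.25 to 4.43 and an adjusted p of 0.0268 in limma's test. Of all 18194 genes, 0.522% were called higher and 0.22% lower in activated Treg. These 135 calls became 12 without activated replicate 1, 34 without resting replicate 2, 36 without either conventional T cell array and 67 without activated replicate 3, and ran from 90 to 168 in the other fits with 1 array left out. The Il10 call depended on which arrays were kept: the adjusted p ran from 0.00644 to 0.107 when single arrays were left out and exceeded 0.05 in 6 of 8 such fits, while the difference stayed between 2.98 and 3.87. It was lost without activated replicate 1 (0.107), activated replicate 3 (0.0741), resting replicate 1 (0.0562), resting replicate 2 (0.0996) or either conventional T cell array (0.0771 each), and held without activated replicate 2 (0.0311) or resting replicate 3 (0.00644). Among the 5 arrays with the lower Actb difference the Il10 difference was 3.29 ± 0.59, with an adjusted p of 0.199. Activated replicate 1 had the highest Il10 (9.17) and Fgl2 (10.02) of the activated Treg. Its averages of the myeloid (7.16), dendritic cell and MHC class II (6.70) and B cell (7.04) markers were also their highest. Its Lgals1 (11.78), Gpr83 (8.71) and Tgfb1 (6.03) were their lowest. Any part of other cells in the Il10 rise was not tested.

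Among the effectors and the receptor the means leaned the same way without passing the test. Fgl2 was 10.02, 9.21 and 9.05 in activated Treg, against 8.54, 7.40 and 8.49 in resting Treg, a difference of 1.28 ± 0.36 (adjusted p = 0.181, limma). Its groups did not overlap, which so few arrays can give without a true difference, and the call was not made. Gpr83 had 8.71, 9.41 and 9.77 in activated Treg, against 8.82, 8.49 and 7.73 in resting Treg (0.95 ± 0.35, adjusted p = 0.317, limma). Lgals1 had 11.78, 11.94 and 12.60, against 10.66, 11.17 and 12.01 (0.83 ± 0.35, adjusted p = 0.409, limma). In both of these, arrays of the groups overlapped. The 95% intervals, not adjusted for the number of genes, ran from 0.46 to 2.10 for Fgl2, 0.16 to 1.75 for Gpr83 and 0.03 to 1.62 for Lgals1. Ebi3, at 8.01, 7.78 and 8.57 in activated Treg and 7.39, 7.52 and 8.01 in resting Treg, differed by 0.48 with a 95% interval from -0.07 to 1.04.

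Il12a and Tgfb1 did not pass the test. Il12a lay at 4.42, 4.34 and 4.39 in activated Treg and at 4.46, 4.14 and 4.42 in resting Treg, close to the highest control value, so that its RNA was barely detectable on this array. Tgfb1 was 6.03, 6.67 and 7.62 in activated Treg, against 6.56, 7.08 and 7.12 in resting Treg, a difference of -0.15 with a 95% interval from -0.99 to 0.70. The 3 Treg arrays with the lowest Tgfb1 among all 6, 6.03, 6.67 and 6.56, were the 3 with an Actb difference above 4, and with Actb class as a block the Tgfb1 difference was 0.16. In all, 1 of 7 measured members was called, with a median difference of 0.83, against a median of 0 over all genes.

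Genes around these mediators moved in a few places. Of the 15 genes for the IL-10 receptor and regulators of Il10, 2 rose in activated Treg: Egr2, an early growth response factor, by 4.95 ± 0.47, and Irf4, a factor that drives effector Treg, by 3.73 ± 0.27. Among 14 measured genes for other suppressive molecules Lag3, an inhibitory receptor, rose by 3.12 ± 0.25. None of the 7 IL-12 family genes, 21 TGF-beta genes, 16 EGF-family and repair genes or 10 galectin and FGL2 receptor genes passed limma's test, where 2095 of all genes had an unadjusted p under 0.05.

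The next comparison, of resting Treg with resting conventional T cells, asked which mediators mark Treg without stimulation. Of the 7 measured members 4 were higher in resting Treg: Fgl2 by 14.7-fold, Ebi3 by 6.16-fold, Gpr83 by 4.97-fold and Lgals1 by 3.92-fold. None was lower. The Fgl2 fold is a point estimate. Its size is uncertain and may be compressed, since the conventional T cell values of Fgl2 lay close to those of the control probe sets. Over all genes 3.86% were called higher and 1.65% lower, and these 1003 calls became 242 and 288 without conventional T cell replicate 1 or 2. The median difference of the 7 was 1.97 on the log2 scale, against 0.01 over all genes.

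Fgl2 had 8.54, 7.40 and 8.49 in resting Treg, against 4.15 and 4.37 in conventional T cells, a difference of 3.88 ± 0.40 (adjusted p = 0.00106, limma). The conventional T cell values sat close to the highest control value. A dimmer second probe set read 5.46, 4.63 and 4.19 against 4.08 and 3.86 (0.79 ± 0.37, adjusted p = 0.363, limma), so the probe sets disagree on size and on the call. Ebi3 had 7.39, 7.52 and 8.01 in resting Treg, against 5.03 and 5.0 in conventional T cells, a difference of 2.62 ± 0.27 (adjusted p = 0.00107, limma). Its partner chain Il12a was 4.46, 4.14 and 4.42 against 4.28 and 4.36, near the controls in both, with a 95% interval of the difference from -0.35 to 0.39.

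Gpr83 had 8.82, 8.49 and 7.73 in resting Treg, against 5.84 and 6.22 in conventional T cells (2.31 ± 0.39, adjusted p = 0.0116, limma), and its second probe set agreed in direction with a larger difference of 3.30 ± 0.44. Lgals1 had 10.66, 11.17 and 12.01 in resting Treg, against 9.24 and 9.38 in conventional T cells (1.97 ± 0.39, adjusted p = 0.0240, limma). Neither gene's groups overlapped, although groups this small can separate without a true difference. These were the less secure of the 4 calls: without a conventional T cell array the adjusted p of Gpr83 was 0.153 or 0.0775 and that of Lgals1 0.219 or 0.155, and Lgals1 also missed the threshold without resting replicate 2 (0.0537). The second Lgals1 probe set differed by 1.29 ± 0.52 (adjusted p = 0.281). Resting replicate 3 had the highest Ebi3, Lgals1, Il10 and Tgfb1 of the resting Treg. It also had the highest averages of the B cell (7.04), dendritic cell and MHC class II (7.04) and myeloid (6.50) markers among them. Its Gpr83 (7.73) was the lowest of the resting Treg, and its Fgl2 (8.49) lay between the others (8.54 and 7.40). With Actb class as a block all 4 were called, at differences of 3.69 for Fgl2, 2.80 for Ebi3, 2.31 for Gpr83 and 2.25 for Lgals1.

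Il10 was not called in resting Treg. Its values of 4.67, 5.08 and 6.46 all lay above the 4.20 and 4.39 of conventional T cells, a difference of 1.11 with a 95% interval from -0.11 to 2.32 (adjusted p = 0.336, limma). Tgfb1 was 6.56, 7.08 and 7.12 against 7.14 and 6.92, and the 2 groups overlapped (-0.11, 95% interval from -1.06 to 0.84). Tgfb1 signal was above the controls in all 3 groups.

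The genes that regulate or act with the mediators were read against the 3.86% of all genes called higher and the 1.65% called lower. Of 15 genes for the IL-10 receptor and regulators of Il10, 5 were higher in resting Treg, led by Maf (4.75 ± 0.27), a factor that drives Il10 transcription, Ahr (4.05 ± 0.23), the aryl hydrocarbon receptor, and Bhlhe40 (3.41 ± 0.28), a repressor of Il10, and 1, the signalling inhibitor Socs3 (-1.08 ± 0.21), was lower. Of 21 genes for TGF-beta activation and signalling, 4 were higher, led by Itgb8 (4.47 ± 0.25), a chain of the integrin that activates latent TGF-beta, the pathway inhibitor Skil (1.31 ± 0.22) and Ltbp3 (1.26 ± 0.27), which binds the latent complex, and the co-receptor Tgfbr3 was lower (-3.32 ± 0.39). Of 14 other suppressive molecules 8 were higher, led by Ctla4 (6.20 ± 0.18), Pdcd1 (5.65 ± 0.56) and Il2ra (5.49 ± 0.33). One of 7 IL-12 family genes, the receptor chain Il12rb1 (1.78 ± 0.38), and 1 of 16 EGF-family and repair genes, the proenkephalin gene Penk (1.83 ± 0.40), were higher; for the repair list that share is near the one over all genes. Among 10 galectin and FGL2 receptor genes Lgals3, encoding galectin-3, was higher (3.96 ± 0.62) and Fcgr3, an Fc receptor, was lower (-1.53 ± 0.26).

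Activated Treg were also set against the same resting conventional T cells, which this comparison shares with the one before. Of the 7 measured members 5 were higher: Fgl2 by 35.8-fold (log2 difference 5.16 ± 0.40), Il10 by 21.8-fold (4.45 ± 0.53), Gpr83 by 9.61-fold (3.27 ± 0.39), Ebi3 by 8.62-fold (3.11 ± 0.27) and Lgals1 by 6.94-fold (2.80 ± 0.39). Their adjusted p-values in limma's test ran from 0.000188 for Fgl2 to 0.00338 for Lgals1. The Fgl2 and Il10 folds are point estimates, with 95% intervals of the log2 difference from 4.24 to 6.08 and from 3.23 to 5.67. Their size is uncertain and may be compressed. The conventional T cell values of both (4.15 and 4.37, 4.20 and 4.39) lay just above the highest control value, 4.14. No array of these genes overlapped between the groups, but the share of all genes without overlap was not counted, so no weight is put on it. Over all genes 5.93% were called higher and 3.77% lower, and these 1765 calls became 433 and 565 without conventional T cell replicate 1 or 2 and 1127 without activated replicate 2. The Lgals1 call was lost by a small margin without conventional T cell replicate 1 (2.72, adjusted p = 0.0502). Il12a (0.06) and Tgfb1 (-0.25, 95% interval from -1.20 to 0.69) were not called. The second Fgl2 probe set was called here, at 1.63 ± 0.37, while the second Lgals1 probe set was not (2.10 ± 0.52, adjusted p = 0.0561, limma).

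Of the accompanying genes, 8 of 15 for the IL-10 receptor and regulators of Il10 were higher in activated Treg than in conventional T cells, led by Irf4 (5.99 ± 0.30), Maf (5.68 ± 0.27) and Egr2 (5.05 ± 0.53), and 2 were lower, Socs3 (-1.38 ± 0.21) and the kinase gene Jak1 (-1.35 ± 0.26). Of 21 TGF-beta genes 3 were higher, Itgb8 (5.64 ± 0.25), its partner chain Itgav (1.69 ± 0.22) and Skil (1.28 ± 0.22), and 3 were lower, the receptors Tgfbr3 (-4.57 ± 0.39) and Tgfbr2 (-1.07 ± 0.22) and the inhibitor Smad7 (-1.40 ± 0.22). Of 14 other suppressive molecules 11 were higher, led by Il2ra (7.07 ± 0.33), and the perforin gene Prf1 was lower (-1.65 ± 0.42). Of 7 IL-12 family genes Il12rb1 (2.68 ± 0.38) and Il6st (1.17 ± 0.21) were higher, of 10 galectin and FGL2 receptor genes Lgals3 was higher (4.74 ± 0.62) and Fcgr3 lower (-1.53 ± 0.26), and none of 16 EGF-family and repair genes was called by limma's test, where 3927 of all genes had an unadjusted p under 0.05.

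The ordering of levels across the 3 groups therefore took 3 forms. Il10 was highest in activated Treg, with resting Treg and conventional T cells not told apart by the test. Ebi3, Fgl2, Lgals1 and Gpr83 were lowest in conventional T cells, with the 2 Treg groups not told apart. Il12a and Tgfb1 showed no called difference between any 2 groups. Activation and lineage are crossed incompletely in this design, since no activated conventional T cells were measured.

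**Figure D2:**
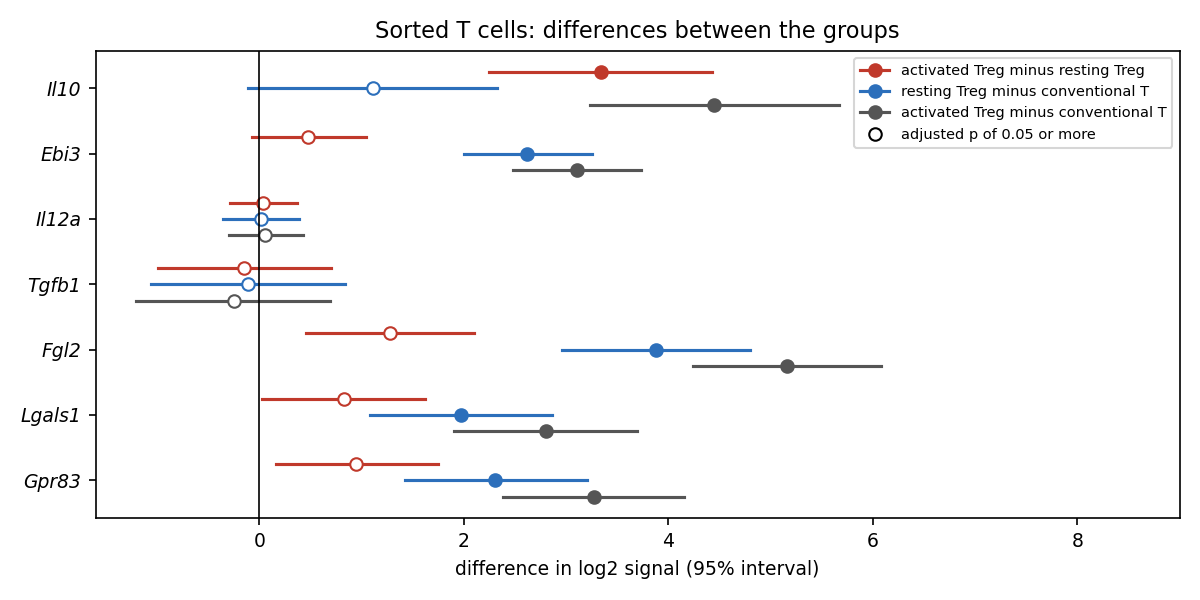
Differences in log2 signal between the sorted T cell groups for the 7 measured members, with 95% intervals from limma. Filled points passed an adjusted p of 0.05. The Il10 interval for activated against resting Treg runs from 2.25 to 4.43, and those of Il12a and Tgfb1 include 0 in all 3 comparisons.

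The sequence next to some of the members is printed here. It is the 250 bases before the RefSeq start of both IL-35 subunit genes, of Fgl2 and of Tgfb1, all read from RefSeq on GRCm38.p6. Ebi3 and Fgl2 were higher in Treg, and Il12a and Tgfb1 were not. Of the 9 genes 6 had a promoter entry, among them Gpr83 and Areg, which are not shown. Gpr83 was also higher in Treg, so the printed genes are a choice and no contrast between them was tested. Capitals mark matches, on either strand, to the searched motifs GTAAACA (forkhead), TGANTCA (AP-1), GGAAA (NFAT core), TGTGGT (RUNX) and TTCNNNGAA (STAT).
Ebi3 (chr17:55952373-55952622, plus strand): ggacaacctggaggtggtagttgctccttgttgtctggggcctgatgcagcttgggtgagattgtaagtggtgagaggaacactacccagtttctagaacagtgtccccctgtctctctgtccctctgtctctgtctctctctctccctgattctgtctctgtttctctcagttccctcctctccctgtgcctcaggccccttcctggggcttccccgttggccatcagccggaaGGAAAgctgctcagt
Il12a (chr3:68690394-68690643, plus strand): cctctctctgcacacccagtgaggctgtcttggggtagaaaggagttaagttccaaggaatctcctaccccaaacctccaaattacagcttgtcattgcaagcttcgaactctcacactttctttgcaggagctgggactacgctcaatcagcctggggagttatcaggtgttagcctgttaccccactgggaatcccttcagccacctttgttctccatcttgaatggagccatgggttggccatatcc
Fgl2 (chr5:21372423-21372672, plus strand): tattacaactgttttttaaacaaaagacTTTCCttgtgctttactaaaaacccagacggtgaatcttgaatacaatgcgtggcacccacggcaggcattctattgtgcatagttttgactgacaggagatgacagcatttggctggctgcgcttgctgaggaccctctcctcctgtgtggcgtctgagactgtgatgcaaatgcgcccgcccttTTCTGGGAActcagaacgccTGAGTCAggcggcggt
Tgfb1 (chr7:25686752-25687001, plus strand): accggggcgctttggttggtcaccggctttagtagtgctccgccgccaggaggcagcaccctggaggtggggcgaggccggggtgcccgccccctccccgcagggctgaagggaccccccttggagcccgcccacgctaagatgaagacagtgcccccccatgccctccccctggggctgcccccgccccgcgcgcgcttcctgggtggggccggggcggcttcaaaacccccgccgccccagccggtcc
Fgl2 held an AP-1 match starting 16 bases and a STAT match starting 36 bases before the start, and an NFAT core match further up, starting 222 bases before it. Ebi3 held an NFAT core match starting 15 bases before the start. Il12a and Tgfb1 held none of the 5 motifs in this window. Over 27025 promoters of the same length, 6.9% held the AP-1 motif, 7.2% the STAT motif, 55.6% the NFAT core, 14.2% the RUNX motif and 3.1% the forkhead motif. A match is a run of letters and not a shown binding site.

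The ligand experiment asked whether semaphorin-4a changes Treg RNA and whether this needs Nrp1. Its 32 arrays form 16 pairs of 1 Sema4a-Ig and 1 IgG1 array with neighbouring title codes, and in the deposited values every pair has the same mean at each probe set (largest spread 6e-05 on the log2 scale). Levels therefore cannot be compared between genotypes, the Nrp1 level does not check the KO label, and each pair contributes 1 Sema4a-Ig minus IgG1 difference. Over all arrays the members averaged 6.86 for Il10, 7.51 for Ebi3, 7.78 for Tgfb1, 5.63 for Fgl2 and 11.14 for Lgals1 on the log2 scale, while Il12a averaged 3.55, inside the range of the control probe sets.

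In WT Treg, Fgl2 was the 1 of 6 listed members called by the test, higher by 1.31-fold with Sema4a-Ig. Its pair differences ran from 0.04 to 0.80 with a median of 0.38, and all 8 were positive. Their mean was 0.39 ± 0.11 on the log2 scale, with a 95% interval from 0.16 to 0.61 and an adjusted p of 0.0387 in limma's test. Over all genes 2.91% were called higher and 2.88% lower with Sema4a-Ig in WT. The exact two-sided sign-flip test of this gene alone gave p = 0.00781, the smallest that 8 pairs allow, unadjusted. The call was lost without any 1 of WT pairs 1, 2, 3, 6, 7 or 8 (adjusted p from 0.0632 to 0.116, differences from 0.33 to 0.41), and so also without WT pair 2, the one with conflicting labels. The second Fgl2 probe set, at a mean of 4.51, differed by 0.22 ± 0.12 in WT and was not called (adjusted p = 0.315, limma).

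Some markers of myeloid cells rose in WT as well, and macrophages too express Fgl2. Of 12 myeloid markers 3 rose with Sema4a-Ig in WT: Lyz2 by 0.81 ± 0.15, Tyrobp by 0.39 ± 0.11 and Ctss by 0.37 ± 0.08, and 10 of 12 were positive. Of the other marker lists, 1 of 8 B cell markers (Cd79b, 0.35 ± 0.09) rose, 1 of 8 CD8 and NK cell markers (Nkg7, -0.52 ± 0.14) fell and none of 7 dendritic cell markers was called. In WT 5 of the 8 B cell, 1 of the 8 CD8 and NK cell and 4 of the 7 dendritic cell markers were positive. In KO these counts were 4, 1 and 4, and 6 of the 12 myeloid markers were positive. The mean difference of the 12 ran over WT pairs from -0.12 to 0.41 with a median of 0.20, and over KO pairs from -0.10 to 0.19 with a median of 0.07. With that mean as a covariate the Fgl2 difference in WT was 0.27 ± 0.14 and not called (adjusted p = 0.530, limma), a fit in which none of the 17097 genes was called. The myeloid mean was 0.41 in WT pair 7, which had the highest Fgl2 difference of the WT pairs (0.80). It was -0.09 in KO pair 3, which had the highest of the KO pairs (1.04). Whether myeloid cells contribute to the Fgl2 difference was not tested.

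In KO Treg the Fgl2 differences ran from -0.20 to 1.04 with a median of 0.28, and 7 of 8 were positive. The mean was 0.29 ± 0.11, with a 95% interval from 0.07 to 0.52, and was not called (adjusted p = 0.409, limma). The Sema4a-Ig effect on Fgl2 differed between KO and WT by -0.10, with a 95% interval from -0.42 to 0.22 (adjusted p = 0.975, limma). A difference between the genotypes was not detected, and the interval includes both 0 and a difference as large as the WT effect.

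Gpr83 could be followed in this experiment only through the probe set list of the other array. Its probe set carries the same number on both, and for 28165 such probe sets that both lists give to 1 gene, the gene was the same in 99.32%. With names added in this way, a choice made after the data were seen, Gpr83 had pair differences from 0.06 to 0.95 in WT, with a median of 0.40 and all 8 positive. The mean was 0.47 ± 0.09, a 1.38-fold rise with Sema4a-Ig (adjusted p = 0.00422 over 18418 genes, limma), where 3.08% of genes were called higher. The call held without each pair in turn (highest adjusted p = 0.0216) and was lost with the myeloid covariate (0.41 ± 0.12, adjusted p = 0.236). The second probe set of Gpr83 rose by 0.48 ± 0.09 in WT.

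In KO the Gpr83 differences were smaller. They ran from -0.02 to 0.43 with a median of 0.17, 6 of 8 positive, and a mean of 0.17 ± 0.09 that was not called (adjusted p = 0.510, limma). The difference in effect, KO minus WT, was -0.30 with a 95% interval from -0.56 to -0.04 and did not pass over all genes (unadjusted p = 0.0244, adjusted p = 0.829, limma). An exact permutation of the genotype labels for Gpr83 alone gave p = 0.0183, unadjusted and two-sided. The second probe set differed less between the genotypes, by -0.19 ± 0.12, and was 0.29 ± 0.09 and positive in 8 of 8 KO pairs.

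**Figure D3:**
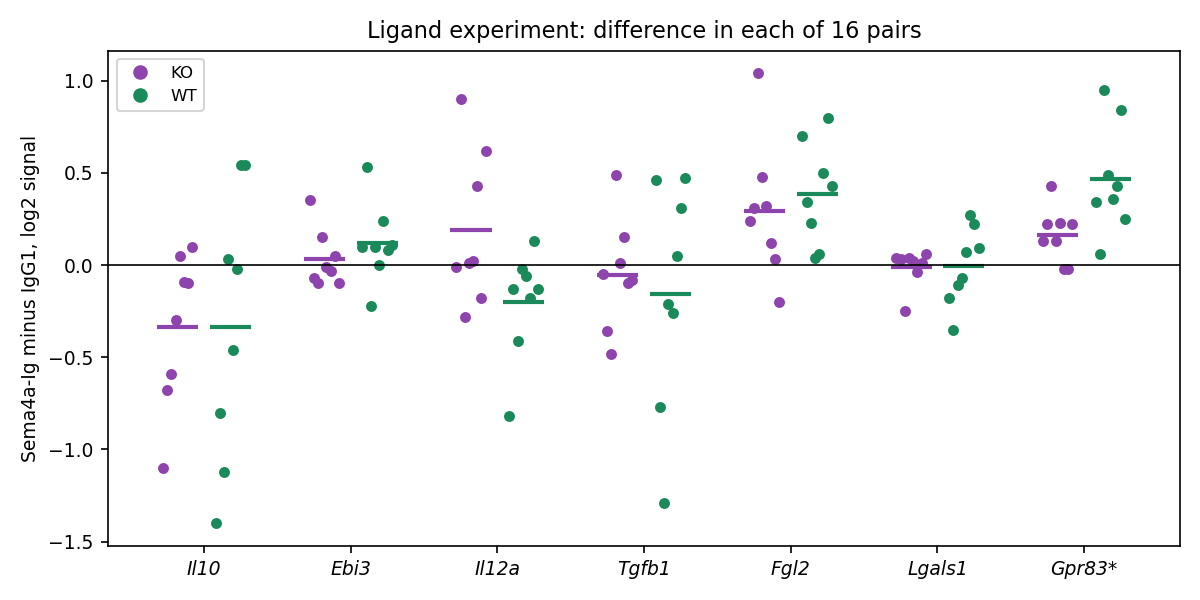
Sema4a-Ig minus IgG1 difference in log2 signal in each of the 8 KO and 8 WT pairs for the measured members, with short lines at the means. The asterisk marks Gpr83, which was named through the table of the other array. All 8 WT pairs lie above 0 for Fgl2 and Gpr83, and Il10 spreads from -1.40 to 0.54 in WT.

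Il10 had no called difference in either genotype. In KO its differences ran from -1.10 to 0.10 with a median of -0.20, and in WT from -1.40 to 0.54 with a median of -0.24. The means were -0.34 ± 0.18 in KO (adjusted p = 0.506, limma) and -0.34 ± 0.18 in WT (adjusted p = 0.293, limma), and only 2 KO and 3 WT pairs were positive. KO minus WT was 0.00, with a 95% interval from -0.52 to 0.52.

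The low Il10 values came from the same replicate numbers in both genotypes. Pairs 1, 2 and 3 had -1.10, -0.68 and -0.59 in KO and -1.40, -0.80 and -1.12 in WT, while the other KO pairs lay between -0.30 and 0.10 and the other WT pairs between -0.46 and 0.54. Those 6 pairs are the ones with title codes from 25 to 56, and the other 10 have codes from 61 to 84. The same 6 pairs also had the widest spread of differences over all genes, with SDs of 0.37, 0.34 and 0.47 in KO and 0.44, 0.34 and 0.50 in WT, against 0.21 to 0.32 in the other KO pairs and 0.25 to 0.30 in the other WT pairs. The codes are not stated to be batches, and this split was noticed in the values, so no test was made of it.

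**Figure D4:**
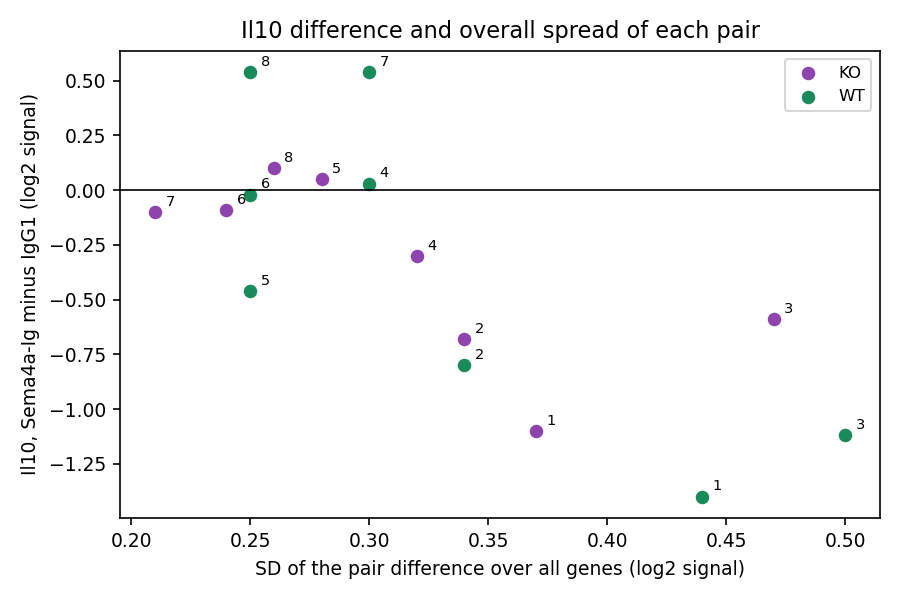
Il10 difference of each pair (Sema4a-Ig minus IgG1, log2 signal) against the SD of that pair's differences over all genes, with KO and WT pairs in separate colours and replicate numbers beside the points. Pairs 1, 2 and 3 of both genotypes lie to the right, at SDs of 0.34 to 0.50, and have the lowest Il10 differences, from -1.40 to -0.59.

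The other members moved little. For Ebi3 the mean difference was 0.03 in KO (95% interval from -0.13 to 0.19) and 0.12 in WT (-0.04 to 0.28), with 3 and 6 of 8 pairs positive. For Lgals1 it was -0.01 in KO (-0.16 to 0.14) and -0.01 in WT (-0.16 to 0.15), the narrowest pair of intervals among the members. This was the second Lgals1 probe set of the sorted cells. The one used there, named here only through the other array's list, gave -0.04 ± 0.07 in KO and 0.06 ± 0.07 in WT. For Tgfb1 it was -0.05 in KO (-0.36 to 0.26) and -0.15 in WT (-0.46 to 0.16), with WT pairs 2 and 3 at -0.77 and -1.29 and the remaining WT pairs between -0.26 and 0.47. A second Tgfb1 probe set, named through the other list, gave 0.17 ± 0.10 in KO (7 of 8 pairs positive) and -0.11 ± 0.10 in WT (1 of 8). Its KO minus WT difference was 0.28 ± 0.14 and not called (unadjusted p = 0.0542, adjusted p = 0.857, limma). Il12a had means of 0.19 in KO and -0.20 in WT, a difference of 0.39 with a 95% interval from 0.05 to 0.74 (unadjusted p = 0.0269, adjusted p = 0.830, limma), on a probe set at the level of the controls.

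In KO none of the 6 listed members was called, and 1 of them, Fgl2, had an unadjusted p under 0.05. Over all 17097 genes limma called 0%, with 1787 at an unadjusted p under 0.05 and a smallest adjusted p of 0.376. For the effect in KO against WT none of the 6 was called either, 1 of them, Il12a, had an unadjusted p under 0.05, and over all genes 0% were called, with 1015 at an unadjusted p under 0.05. In WT the median difference of the 6 was -0.08, against -0.01 over all genes.

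Some receptors and signal carriers of the same pathways were called in WT, where 2.91% of all genes were called higher and 2.88% lower. Those 990 calls became 258 without WT pair 3, 413 without WT pair 7 and 538 without WT pair 1, and ran up to 1328 without KO pair 3. The adjusted p was 0.0493 for Irf4, 0.0466 for Skil and 0.0394 for Stat4, close to the threshold. Of 15 genes for the IL-10 receptor and regulators of Il10, Socs3 (0.60 ± 0.12) and the receptor chain Il10rb (0.36 ± 0.09) rose and Irf4 fell (-0.50 ± 0.15). Of 7 IL-12 family genes the receptor chain Il6st, through which IL-35 and IL-27 signal, rose by 0.44 ± 0.08 and Stat4 by 0.29 ± 0.08. Of 19 TGF-beta genes the receptor Tgfbr2 (0.33 ± 0.08), Smad4 (0.30 ± 0.08) and Skil (0.29 ± 0.09) rose and Itgav fell (-0.42 ± 0.11). Il18r1, the IL-18 receptor chain of repair Treg, rose by 0.52 ± 0.09 as 1 of 16 repair genes, and Lgals3 by 0.53 ± 0.10 as 1 of 9 galectin and FGL2 receptor genes. Of 14 other suppressive molecules the ectonucleotidase gene Nt5e rose (0.53 ± 0.08), while the inhibitory receptor gene Lag3 (-0.54 ± 0.14) and Pdcd1lg2 (-0.53 ± 0.14), which encodes the ligand PD-L2, fell. None of these lists had a call in KO, and the effect in KO against WT was not called for any gene.

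For each listed member, the 3 genes with the highest Pearson correlation to it over the 16 pair differences were named. These were Mt1, Hccs and Cbfb for Il10 (r = 0.87, 0.87 and 0.86), Xrcc1, Sgms1 and Gpkow for Ebi3 (0.89, 0.88 and 0.87) and Mapk6, Cd28 and Bloc1s2 for Tgfb1 (0.89, 0.88 and 0.85). For Fgl2 they were Dmtf1, Pga5 and Gxylt1 (0.86, 0.80 and 0.80), for Lgals1 Ndc80, Prelid1 and Ap2s1 (0.85, 0.83 and 0.82), and for Il12a Dazap1, Ssxb1 and Evx1os (0.82, 0.80 and 0.78). The points share arrays and the wider spread of 6 pairs, and each set of 3 is the top of all other genes, so these are descriptions.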

How the data were processed

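The authors deposited log2 signals per probe set, made with RMA and Partek 6.6 per the submitters' processing notes; how the pair means of the ligand experiment became equal is not stated in these sources. Probe sets listed for 1 gene were kept, symbols were updated through a RefSeq table (GRCm38.p6), and each gene was represented by its probe set with the highest mean over the arrays of its platform. No build is named for the arrays, so probe coordinates are not given.

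From these values the 8 sorted arrays were fitted with 3 group means (5 residual degrees of freedom). The 16 ligand pairs, matched by neighbouring title codes and the equal means, were fitted as differences with a mean per genotype (14 residual degrees of freedom). Tests were two-sided in limma 3.58.1 (lmFit, eBayes; R 4.3.3), adjusted by Benjamini-Hochberg over all genes at 0.05, with no pseudocount. The number of arrays limits the precision. The code was tested on simulated data.

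The members and lists were chosen with earlier results of these data known. All 9 members were named in every comparison, and per list at most 3 called genes in each direction with the largest difference. Replicate numbers of the sorted arrays follow accession order, and the labels give no pairing of them. Alternatives covered probe set choice, normalization, filters, moderation, Actb, myeloid markers, pairing and left-out arrays.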

Additional observations from a re-analysis of the deposited data

Results flagged for a closer look

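One pair value stood far from the others of its group. The Lgals1 difference of KO pair 3 was -0.25 (Sema4a-Ig minus IgG1, log2 signal), whereas the other 7 KO pairs lay between -0.04 and 0.06, and the gap to the nearest of them exceeded the 95% limit of Dixon's test for 8 values. In WT the Lgals1 differences ran from -0.35 to 0.27, so a value of this size was not unusual there. Without that pair the KO mean was 0.02. In all 14 groups of 8 were tested, and chance flags about 1 in 20.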

How the results depend on the processing

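With 2 or 3 arrays in a group, the sorted comparisons rest on few values, and Il12a lies at the level of the controls in both experiments. The differences of Il10, Ebi3, Fgl2, Lgals1 and Gpr83 kept their sign in the 3 sorted comparisons under all 19 alternatives run. The number of members called in activated against resting Treg was 1, and became 2 with array weights (Fgl2 added, 1.44, adjusted p = 0.0363; 957 genes called in all against 135), 0 with only the 2 groups compared (36 genes), 0 with only the 5 arrays of the lower Actb class (24 genes, an alternative added after seeing the data), and 0 to 1 when single arrays were left out. In resting Treg against conventional T cells it was 4, with 2 to 4 when single arrays were left out, and Lgals1 missed the threshold with the mean of its probe sets (1.63, adjusted p = 0.0844) and with only the 2 groups (0.0544). The paired fit is the one reported for the ligand experiment. A limma fit with no replicate block took the 32 arrays as independent. Since the 2 arrays of a pair share 1 mean, it counted each difference as 2 values, so its p-values are too small. It called 1 member in KO (Fgl2, adjusted p = 0.0197) and 1 in WT, and 1734 genes in KO against 0. No weight is put on these calls. In WT the count was 0 to 1 when single pairs were left out, 0 with the myeloid covariate and 2 with names added from the other array's list. Of the 6 listed members the unadjusted exact permutation test passed 1 in KO (Fgl2), 2 in WT (Fgl2 and Il12a) and 1 for KO against WT (Il12a); Gpr83, named through the other list, passed it too, at p = 0.0312 in KO, 0.00781 in WT and 0.0183 for KO against WT. With KO and WT pairs of the same number as a replicate block, an alternative added after seeing the data, 0 of the 6 were called for KO against WT, and Gpr83 was -0.30 ± 0.12 (adjusted p = 0.743, limma), lower in KO in 7 of 8 numbers. Same-numbered pairs did not deviate together as a whole: their correlations over genes ran from -0.04 to 0.23, and only those of numbers 3 and 4 in KO and 3 in WT were the highest with their own number.

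Differences near 0 changed sign, and the cause was not tested. For Tgfb1, activated against resting Treg, the values were 0.01 with the mean of its probe sets, 0.16 with Actb class as a block, 0.13 with the Actb covariate, 0.52 within the lower class and -0.57 to 0.23 with single arrays left out. Against conventional T cells they were, in the order class block, covariate, lower class, 0.19, 0.48 and 0.07 in resting Treg (-0.22 to 0.07 with arrays left out), and 0.35, 0.62 and 0.59 in activated Treg, where the mean of the probe sets gave 0.02 (-0.68 to 0.12). With pairs left out Tgfb1 ran from -0.13 to 0.01 in KO, -0.24 to 0.01 in WT and -0.06 to 0.19 for KO against WT. Il12a was -0.01 with quantile normalization in activated Treg against either group and -0.06 to 0.10 against resting Treg with arrays left out; in resting against conventional T cells it was -0.06 with array weights, -0.01, -0.03 and -0.04 for the 3 Actb settings and -0.04 to 0.12 with arrays left out, and -0.02 in activated against conventional T cells with the covariate. Lgals1 was 0.01 in KO and 0.06 in WT with array weights, 0.06 in WT with names added, and 0.03 with quantile normalization and 0.02 with the myeloid covariate for KO against WT; with pairs left out it ran from -0.02 to 0.02 in KO, -0.05 to 0.04 in WT and -0.05 to 0.03 between them. Ebi3 in KO ran from -0.01 to 0.05.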
